A study of Rattus norvegicus with 71 samples.

Results

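The 10 genes described here encode chemokines, cytokines and receptors that the newborn rat brain expresses: the chemokine ligands Cxcl12, Cxcl14 and Cx3cl1, the chemokine receptors Cxcr4 and Ackr3, the ligands Csf1 and Il34 of the CSF1 receptor, the interleukin 1 family cytokines Il33 and Il18, and Il6st, which encodes gp130, the receptor subunit shared by the interleukin 6 family. They were chosen by gene symbol, and all 10 were found among the 17494 genes of the count table. Maternal autoantibody related autism (MAR autism) refers to cases in which maternal autoantibodies to fetal brain proteins are present, and exposure to such antibodies (MARA-AB exposure) was modelled in Sprague-Dawley rats by immunizing dams before mating. The RNA-seq libraries came from 71 wild-type (WT) offspring of 27 dams at postnatal day (PND) 2, and each was made from poly-A RNA of a 150 um coronal brain slice that held hippocampus with cortical and subcortical structures.

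Dams of the exposed groups had received peptides of the antigens together with Freund's adjuvant, and control dams had received adjuvant and saline, so all groups shared the adjuvant. Exposure was therefore assigned to dams, and littermates shared one. The control group held 24 animals from 7 litters, CRMP1+CRMP2 held 8 animals from 4 litters, CRMP1+GDA held 6 animals from 3 litters, STIP1+NSE held 8 animals from 4 litters, and LDHA/B+CRMP1+STIP1 held 25 animals from 9 litters, with 35 males and 36 females in all. The 2 sequencing batches are told apart by the sample titles. Batch 1 consisted of 12 controls with 16 LDHA/B+CRMP1+STIP1 animals, and batch 2 consisted of the other 12 controls, the other 9 LDHA/B+CRMP1+STIP1 animals and all animals of the remaining 3 patterns.

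Chemokines are small secreted proteins that guide migrating cells through G protein-coupled receptors. In the developing brain CXCL12 from the meninges and blood vessels attracts CXCR4-bearing interneurons, Cajal-Retzius cells and granule cell precursors, while ACKR3 takes up CXCL12 without G protein signalling and so shapes how much of it is available. CX3CL1 is made by neurons and is read by microglia through CX3CR1, and microglia depend for survival on CSF1R, whose ligands are CSF1 and IL-34. IL-33 and IL-18 are nuclear or cytosolic proteins released on damage or after cleavage, and gp130 passes the signals of IL-6, LIF and CNTF to JAK kinases and STAT3.

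Cx3cl1 and Cxcl14 were the members called in an exposure comparison, and the DNA around their start sites is shown for that reason. The windows cover 250 bases before and 50 bases after the start in the RefSeq annotation of GRCr8. Cx3cl1 lies on the minus strand (window chr19:10242771-10243070) and Cxcl14 on the plus strand (window chr17:8322900-8323199), and both are written 5′ to 3′ along the gene with motif matches in capitals.
Cx3cl1: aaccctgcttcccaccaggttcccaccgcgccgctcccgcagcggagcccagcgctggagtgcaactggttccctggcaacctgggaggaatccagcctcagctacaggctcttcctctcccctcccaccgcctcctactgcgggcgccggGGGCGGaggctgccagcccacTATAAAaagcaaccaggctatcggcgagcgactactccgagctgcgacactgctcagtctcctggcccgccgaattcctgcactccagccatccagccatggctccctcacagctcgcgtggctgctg
Cxcl14: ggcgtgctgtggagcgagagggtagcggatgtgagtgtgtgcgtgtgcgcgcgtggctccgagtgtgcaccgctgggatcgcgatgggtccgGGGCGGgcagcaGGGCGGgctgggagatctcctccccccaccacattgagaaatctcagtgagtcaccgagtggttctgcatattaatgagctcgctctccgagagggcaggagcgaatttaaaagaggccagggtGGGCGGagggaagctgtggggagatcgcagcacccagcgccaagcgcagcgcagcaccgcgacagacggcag
Motifs were searched on both strands, with no overlap among the matches shown. The letters were TATAAA for the TATA box and GGGCGG for the GC box. A search for CCAAT found no match in either window, nor did one for the E box, spelled CACGTG. The Cx3cl1 window held 1 TATA box, 1 GC box and 20 CpG dinucleotides, and the Cxcl14 window held 3 GC boxes, no TATA box and 26 CpG dinucleotides. Of 33469 windows of the same length, 14.2% held a TATA box, 33.1% a GC box, 37.5% the CCAAT letters and 6.42% the E box, and the median window held 7.0 CpG dinucleotides. A window was found for 8 of the 10 members. In the build of the count table, rn7, Cx3cl1 spans chr19:10227345-10236832 with 3057 exon bases and Cxcl14 spans chr17:8317933-8325954 with 1615 exon bases.

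Total counts ranged from 24880182 to 36234952 per library (median 28439195), so that a value of 1 CPM, the count scaled to its library's total, stood for between 24.9 and 36.2 counts. The slices differed in what they held. The summed level of 5 thalamus markers was 74.3 to 140 CPM in batch 1 and 88.6 to 1038 CPM in batch 2, and 6 choroid plexus markers summed to a mean of 70.8 CPM in batch 1 and 1102 CPM in batch 2. Within batch 2, 5 libraries stood apart by more than 10 CPM of pineal markers (2 of CRMP1+CRMP2, 2 of STIP1+NSE and 1 of CRMP1+GDA) and 7 by thalamus markers below 352 CPM, which is 0.5 of the batch 2 median (2 of CRMP1+CRMP2, 1 of STIP1+NSE, 3 of LDHA/B+CRMP1+STIP1 and 1 control). Markers of neurons, glia, vessels and meninges were present in every library, and the 4 T cell markers summed to at most 0.727 CPM. In slices of mixed tissue, fewer cells of a type and less RNA per cell cannot be told apart.

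Levels between genes are compared as RPKM, which is CPM divided by the exon length in kilobases. Cx3cl1, the neuronal fractalkine, stood highest in 71 of 71 animals with a mean level of 48.4 RPKM ± 8.58 (SD, n = 71). Cxcl14, a chemokine found in interneurons and other brain cells, followed at 22.5 ± 10.02 RPKM and Cxcr4 at 17.9 ± 3.17 RPKM, and Cxcl14 exceeded Cxcr4 in 40 of 71 animals. Their order differed by batch. Cxcl14 was the higher of the pair in 26 of 28 animals of batch 1 (means 32.3 and 15.6 RPKM) and in 14 of 43 animals of batch 2 (16.1 and 19.3 RPKM). Il6st averaged 10.02 ± 1.11 RPKM and varied least among animals, with a coefficient of variation of 11.1%. Cxcl12 averaged 8.60 ± 2.75 RPKM, below Il6st in 51 of 71 animals, and its scavenging receptor Ackr3 averaged 6.37 ± 1.13 RPKM. Il34 stood at 5.20 ± 1.72 RPKM and above Csf1 (3.43 ± 0.680 RPKM) in 60 of 71 animals. Csf1 and Il33 (3.38 ± 1.03 RPKM) were ordered in that way in 38 of 71 animals, 22 of 28 in batch 1 and 16 of 43 in batch 2, and their means lay within 1 SD of each other in either batch. Il18 was lowest in 71 of 71 animals at 1.31 ± 0.661 RPKM, and its CPM of 0.0992 to 2.25 rested on few counts.

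The partners of these genes were expressed at very different levels. Of the receptors that read the ligands, Csf1r averaged 5.24 RPKM and Cx3cr1 2.60 RPKM, both microglial receptors, whereas Ptprz1, a phosphatase of radial glia that also binds IL-34, averaged 75.4 RPKM. Il1rl1, the IL-33 receptor, averaged 0.132 RPKM and Il18r1, the IL-18 receptor, averaged 0.0140 RPKM, and both were at 0 counts in some libraries. Among the receptors that pair with gp130, Cntfr averaged 43.3 RPKM, Lifr 5.55 RPKM and Il6r 0.593 RPKM. Most other chemokine genes were near 0: of 33 further chemokine ligands 3 had a median of at least 1 CPM, namely Ccl27 (median 28.3 CPM), Cxcl16 (2.99 CPM) and Pf4 (1.15 CPM), and 26 stayed below 1 CPM in every library. Of 21 further chemokine receptors 18 were listed in the table, and those with a median of at least 1 CPM included Cx3cr1 (3.54 CPM) and Ccr10 (1.07 CPM). Of 28 genes for proteins of the study's multiplex cytokine panel, 22 stayed below 1 CPM in every library, and the 3 with a median of at least 1 CPM were Cx3cl1, Vegfa (106 CPM) and Egf (3.14 CPM).

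**Figure D1:**
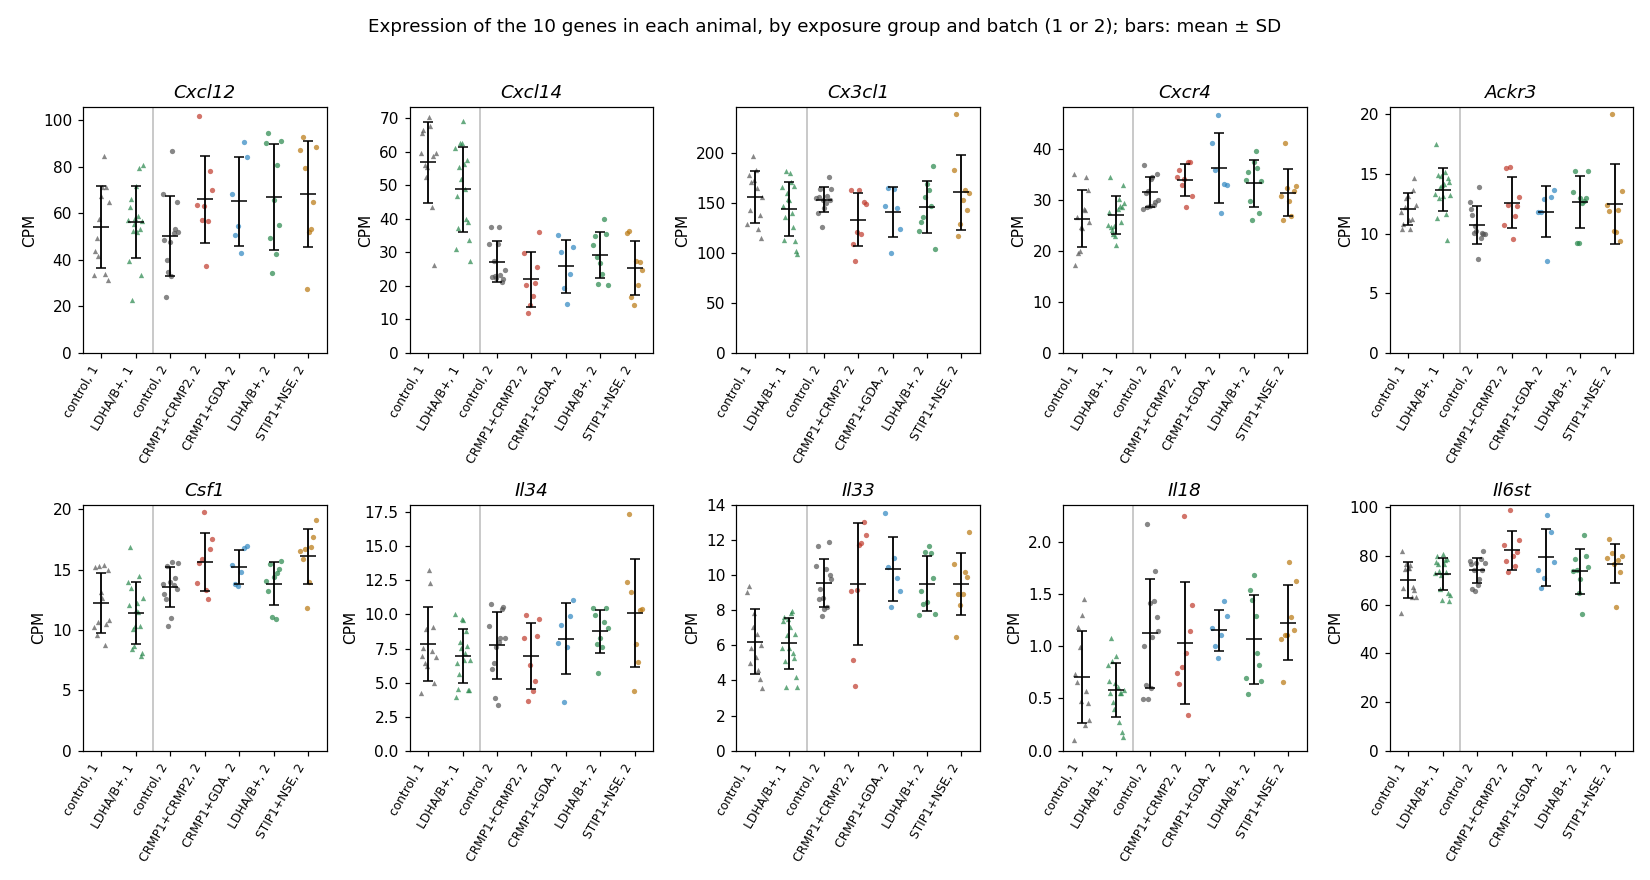
Level of each gene in CPM (linear axes from 0) in each of 71 animals by exposure group, with batch 1 as triangles left of the grey line, batch 2 as circles right of it (LDHA/B+ stands for LDHA/B+CRMP1+STIP1), and bars for the mean ± SD. Cxcl14 lies lower and Il33 higher in batch 2 than in batch 1, and within a batch the exposure groups overlap for every gene.

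The first comparison asked whether the members differed between all 47 MARA-AB exposed animals and the 24 controls. No member was called by the quasi-likelihood test of edgeR after Benjamini-Hochberg adjustment (adjusted p under 0.1), against 0.0321% of the 12477 genes tested, while 2 of 10 had an unadjusted p under 0.05, against 10.3% of all genes. DESeq2 also called none of the members, against 0.128% of all genes. The member closest to a call was Ackr3. It ranged from 7.87 to 14.7 CPM in controls (median 11.2) and from 7.70 to 19.97 CPM in exposed animals (median 13.0), so the groups overlapped over most of their range. Its log2 fold change was 0.19 (SE = 0.06, p = 0.00139, adjusted p = 0.248 with edgeR). Cxcl12 ranged from 23.9 to 86.8 CPM in controls (median 50.5) and from 22.6 to 102 CPM in exposed animals (median 59.0). Its log2 fold change was 0.26 (SE = 0.12, p = 0.0316, adjusted p = 0.434 with edgeR), which fell to 0.16 (p = 0.176) when the thalamus-poor libraries were left out. The other 8 members had log2 fold changes from -0.22 to 0.09. Over the 10 members the median log2 fold change was 0.03, against 0.00 over all genes tested. Within batch 2 alone the values were 0.20 for Ackr3 (p = 0.0266) and 0.40 for Cxcl12 (p = 0.0142), with adjusted p of 0.767 and 0.745. With litter as a random effect (limma) the log2 fold changes over both batches were 0.18 for Ackr3 (p = 0.0258) and 0.27 for Cxcl12 (p = 0.0904), with an adjusted p of 0.942 for both.

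The 4 patterns were then each compared with the same 24 controls, which the comparisons therefore share. In CRMP1+CRMP2 offspring 2 of 10 members were called, both lower than in controls, against 11.4% of the 12691 genes tested in either direction and 6.56% lower. With no adjustment, 5 of 10 had p under 0.05, against 24.4% of all genes. The called members were Cx3cl1 and Cxcl14.

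Cx3cl1, the ligand through which neurons signal to microglia, measured 162, 108, 91.7, 121, 163, 119, 151 and 149 CPM in the 8 CRMP1+CRMP2 animals, against 115 to 197 CPM in all controls (median 155) and 126 to 176 CPM in those of batch 2 (median 154). Of the 8 animals 4 lay below the lowest control of batch 2 and 4 lay within its range. The low libraries at 108 CPM (litter 9_1), 91.7 CPM (litter 9_6) and 119 CPM (litter 9_11) were among those set apart by pineal or thalamus markers. The low library at 121 CPM (litter 9_6) was not. In other groups, libraries so set apart lay both below and above the range of the batch 2 controls. The thalamus-poor library of litter 9_24 held 104 CPM of Cx3cl1. Both libraries of litter 9_2, 1 of them thalamus-poor, held 183 and 238 CPM. The log2 fold change of Cx3cl1 in CRMP1+CRMP2 was -0.29 (SE = 0.09, p = 0.00182, adjusted p = 0.0457 with edgeR). Cxcl14 measured 29.9, 20.2, 11.8, 14.2, 16.99, 20.8, 25.6 and 36.03 CPM in the same animals. The controls of batch 2 held 21.1 to 37.5 CPM (median 24.1) and those of batch 1 held 26.2 to 70.3 CPM (median 59.0), so 5 of the 8 animals lay below every control. Among the 5 were the same libraries set apart by markers, at 20.2, 11.8 and 20.8 CPM. Those at 14.2 and 16.99 CPM were not set apart. The fitted log2 fold change for Cxcl14 was -0.61 (SE = 0.21, p = 0.0063, adjusted p = 0.0787 with edgeR).

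Both calls depended on the samples and on the unit of replication. Within batch 2 the log2 fold change was -0.23 for Cx3cl1 (SE = 0.09, adjusted p = 0.176) and -0.31 for Cxcl14 (SE = 0.17, adjusted p = 0.319). With litter as a random effect (limma) the log2 fold changes were -0.32 and -0.77, with adjusted p of 0.143 and 0.168, and with counts summed per litter they were -0.20 and -0.43, with adjusted p of 0.448 and 0.454. The pair of males of litter 9_6 had the lowest litter mean of both genes (106 CPM of Cx3cl1 and 13.0 CPM of Cxcl14), and without this litter the log2 fold changes were -0.18 (adjusted p = 0.489) and -0.31 (adjusted p = 0.614). Without the libraries rich in pineal markers they were -0.23 and -0.51 (adjusted p = 0.184 and 0.248), and without the thalamus-poor libraries -0.18 and -0.26 (adjusted p = 0.478 and 0.666). These runs left out overlapping animals. A female of litter 9_1 was in both sets, and a male of litter 9_6 was thalamus-poor.

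Marker genes of other cells moved in the same comparison, where 11.4% of all genes were called in either direction and 6.56% lower. All 6 choroid plexus markers and all 6 pineal markers were called higher in CRMP1+CRMP2 (median log2 fold change 2.05 and 3.75), 2 of 5 border macrophage markers were called higher, and 3 of 8 interneuron markers were called lower (median -0.48, with 8 of 8 negative). Within batch 2 the medians were 0.47 for choroid plexus, 2.94 for pineal and -0.22 for interneuron markers, and 1 pineal marker and none of the other 3 lists was called. Choroid plexus markers summed to 1210 ± 994 CPM (SD, n = 8) in CRMP1+CRMP2, 915 ± 822 CPM (n = 12) in the controls of batch 2 and 21.4 ± 29.1 CPM (n = 12) in those of batch 1. Pineal markers had a median sum of 5.83 CPM in CRMP1+CRMP2 and 4.17 CPM in the controls of batch 2, and only 1 of the 6 had a median of at least 1 CPM over all libraries. Their high values came from 2 libraries of CRMP1+CRMP2 (256 and 73.4 CPM), through which low genes could pass the filter. Interneuron markers summed to 351 to 655 CPM in CRMP1+CRMP2 and 439 to 667 CPM in the controls of batch 2. Meninges and fibroblast markers summed to 750 ± 328 CPM (SD, n = 8) and 464 ± 235 CPM (n = 12) in the same groups. Excitatory neuron markers summed to 1060 ± 343 and 885 ± 108 CPM. The part of these markers in the values of Cx3cl1 and Cxcl14 was not tested.

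A further 3 members had an unadjusted p under 0.05 in CRMP1+CRMP2 without a call, all with positive log2 fold changes, against 11.2% of all genes with an unadjusted p under 0.05 and a higher level. Il6st, the gp130 gene, had a log2 fold change of 0.12 (SE = 0.05, p = 0.0173, adjusted p = 0.123 with edgeR), and its 8 values ran from 73.5 to 98.9 CPM against 56.4 to 82.0 CPM in controls. Ackr3 had a log2 fold change of 0.18 (SE = 0.08, p = 0.0387, adjusted p = 0.181) and Csf1, the growth factor of macrophages, 0.19 (SE = 0.09, p = 0.0425, adjusted p = 0.190). Genes that work with the members were counted from lists in the same fit, where 11.4% of all genes were called. Of 10 genes of chemokine signalling and processing 2 were called, both lower: Gnai2, a Gi protein subunit (log2 fold change -0.14, SE = 0.05, adjusted p = 0.0694), and Arrb2, a β-arrestin (-0.14, SE = 0.05, adjusted p = 0.0842). Of 18 gp130 axis genes tested 1 was called, the CNTF receptor gene Cntfr, which was lower (-0.19, SE = 0.06, adjusted p = 0.0752). Of 15 genes of the interleukin 1 family axis 1 was called, the IL-33 receptor gene Il1rl1, which was higher (1.41, SE = 0.40, adjusted p = 0.0352) from a level of less than 1 CPM. None of the 5 genes of the CSF1 receptor axis was called. Within batch 2 no gene of these 4 lists was called. Over all genes the 1445 calls of this comparison became 127 within batch 2, 8 with litter as a random effect (limma), 0 with counts summed per litter, where 1435 genes had an unadjusted p under 0.05, and 41 without litter 9_6.

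In LDHA/B+CRMP1+STIP1 offspring, the group sequenced in both batches, no member was called, against 0.0157% of 12700 genes, and 1 had an unadjusted p under 0.05, against 7.17% of all genes. Ackr3 ranged from 9.17 to 17.5 CPM (median 13.3) against 7.87 to 14.7 CPM in controls, with a log2 fold change of 0.18 (SE = 0.06, p = 0.00262, adjusted p = 0.357 with edgeR). Within batch 1 the log2 fold change was 0.18 (SE = 0.08, p = 0.0238 with edgeR) and within batch 2 it was 0.22 (SE = 0.10, p = 0.0351). Of the litters left out in turn, only the run without litter 9_9 gave a call (adjusted p = 0.0803 with edgeR). That litter had the lowest Ackr3 mean of this pattern, 9.21 CPM against 12.8 to 15.3 CPM in its other litters. The same run called 0.347% of all genes. Cxcl12 had a log2 fold change of 0.41 within batch 2 (SE = 0.20) and 0.04 within batch 1 (SE = 0.15). The difference between batches, tested as an interaction, was 0.35 (SE = 0.27, p = 0.197, adjusted p = 1.00 with edgeR). No member passed the interaction test, against 0% of 12323 genes, and none had an unadjusted p under 0.05, against 2.89%.

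In CRMP1+GDA offspring no member was called, against 0% of 12641 genes, and 2 had an unadjusted p under 0.05, against 3.65% of all genes. Cxcr4, the signalling receptor of CXCL12, ranged from 27.4 to 46.7 CPM (median 34.6) against 17.2 to 36.8 CPM in controls, of which those of batch 2 held 28.2 to 36.8 CPM. Its log2 fold change was 0.29 (SE = 0.13, p = 0.0327, adjusted p = 0.999 with edgeR) and 0.21 within batch 2. Cx3cl1 ranged from 99.4 to 165 CPM (median 146), with a log2 fold change of -0.22 (SE = 0.10, p = 0.0325, adjusted p = 0.999 with edgeR) and -0.13 within batch 2. In STIP1+NSE offspring no member was called, against 0.0474% of 12660 genes, and 1 had an unadjusted p under 0.05, against 3.19% of all genes. Csf1 ranged from 11.8 to 19.1 CPM (median 16.7) against 8.76 to 15.7 CPM in controls, with a log2 fold change of 0.20 (SE = 0.10, p = 0.0427, adjusted p = 1.00 with edgeR). Within batch 2 it was 0.25 (SE = 0.09, p = 0.0124 with edgeR), also without a call, against 0% of genes. Of the 8 animals 6 lay above every control of batch 2. Il34, the other ligand of the CSF1 receptor, ranged from 4.37 to 17.4 CPM in STIP1+NSE and from 3.37 to 13.2 CPM in controls (log2 fold change 0.31, SE = 0.22). A single test for any difference among the 5 groups of batch 2 called no member, against 0% of 12384 genes, and 1 had an unadjusted p under 0.05, against 8.00%. The smallest p was that of Csf1 (p = 0.0267, adjusted p = 0.619 with edgeR), whose batch 2 means were 13.6 CPM in controls, 15.7 in CRMP1+CRMP2, 15.2 in CRMP1+GDA, 13.9 in LDHA/B+CRMP1+STIP1 and 16.1 in STIP1+NSE. With litter as a random effect (limma) 0 members had an unadjusted p under 0.05 in this test, against 1.62% of genes. The same run gave 0 members in STIP1+NSE, against 1.34%, and 2 in CRMP1+GDA, against 1.34%.

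**Figure D2:**
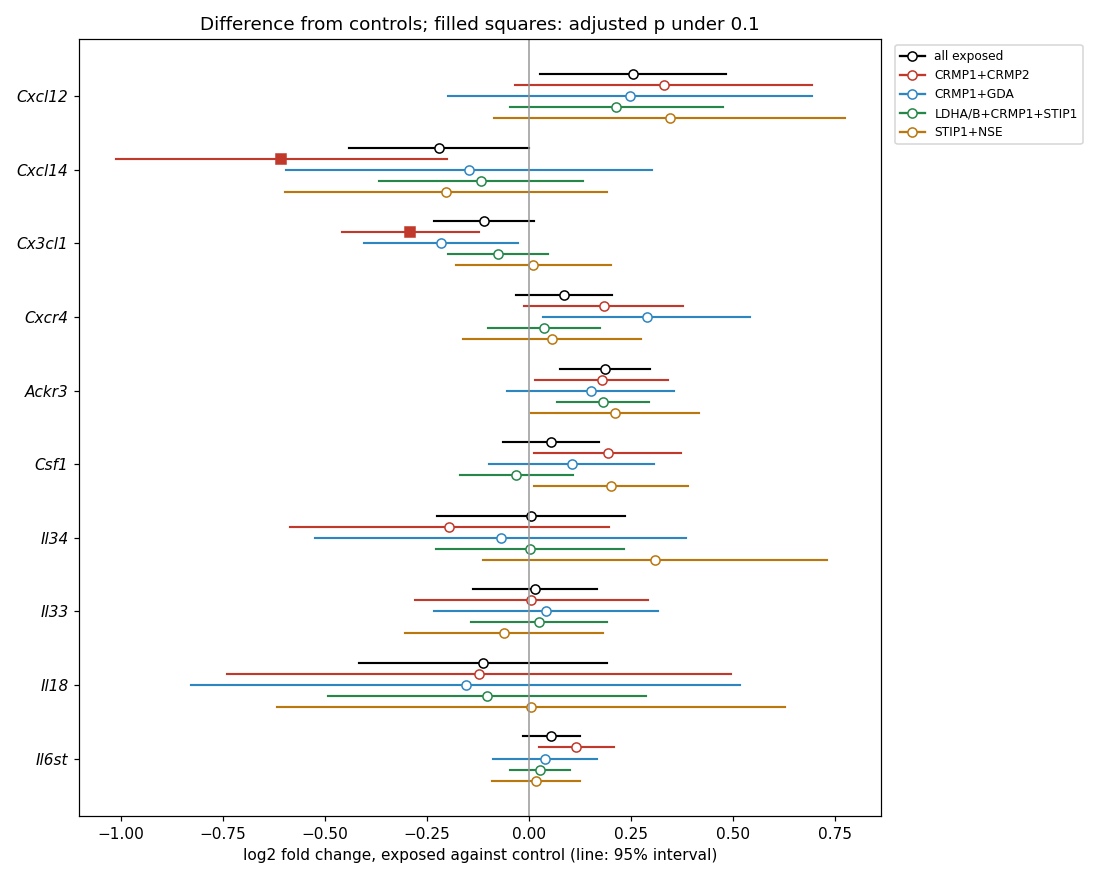
Log2 fold change of each gene in all exposed animals and in each pattern against the same 24 controls, with lines for the 95% interval from edgeR and filled squares for an adjusted p under 0.1. The filled squares are Cxcl14 (-0.61) and Cx3cl1 (-0.29) in CRMP1+CRMP2, and Ackr3 lies between 0.15 and 0.21 in all 5 comparisons.

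The difference between batches was measured in controls alone, 12 in each batch, where 4 of 10 members were called, against 41.6% of 12089 genes, and 5 had an unadjusted p under 0.05, against 43.3%. Cxcl14 ranged from 26.2 to 70.3 CPM in batch 1 (median 59.0) and from 21.1 to 37.5 CPM in batch 2 (median 24.1), and 11 of the 12 controls of batch 1 lay above every control of batch 2. Its log2 fold change was -1.08 (SE = 0.13, adjusted p = 5.74e-07 with edgeR). Il33, an alarmin that astrocytes and their precursors hold in the nucleus, ranged from 3.60 to 9.39 CPM in batch 1 and from 7.67 to 11.9 CPM in batch 2 (log2 fold change 0.61, SE = 0.13, adjusted p = 0.000564). Cxcr4 was higher in batch 2 by 0.23 on the log2 scale (SE = 0.10, adjusted p = 0.0760) and Ackr3 lower (log2 fold change -0.20, SE = 0.08, adjusted p = 0.0615). With litter as a random effect the calls of Cxcr4 and Ackr3 were lost (limma, adjusted p = 0.224 and 0.311), and 21.7% of all genes were called. Il18, the inflammasome cytokine, was not called (log2 fold change 0.69, SE = 0.32, p = 0.0418, adjusted p = 0.1002 with edgeR). Cx3cl1, Il34, Cxcl12, Il6st and Csf1 had log2 fold changes from -0.13 to 0.12.

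Of the gp130 axis, 9 of 18 genes tested were called between the control batches, a share near the 41.6% of all genes called. Of these, 7 were higher in batch 2 and 2 lower. The higher ones included Cntfr (log2 fold change 0.22, SE = 0.07, adjusted p = 0.0116), and the lower ones were the kinase genes Jak1 (-0.16, SE = 0.04, adjusted p = 0.00482) and Jak2 (-0.34, SE = 0.06, adjusted p = 8.85e-05). Marker lists moved between the same animals: thalamus markers had a mean sum of 97.9 CPM in controls of batch 1 and 722 CPM in those of batch 2, and interneuron markers 741 and 553 CPM. Excitatory neuron markers had mean sums of 1294 and 885 CPM in the same order. Radial glia and astrocyte markers had 1115 ± 140 and 1207 ± 144 CPM (SD, n = 12 each). The part of these markers in the values of Cxcl14 and Il33 was not tested.

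Males and females were compared next. No member was called in the test of sex over all 71 animals, against 0.0641% of 12477 genes, none had an unadjusted p under 0.05, against 4.69%, and log2 fold changes of males against females lay between -0.09 and 0.04. Within batch 1 none was called, against 0.0668% of genes, and 2 had an unadjusted p under 0.05, against 7.01%. These were Cxcl12 (log2 fold change -0.33, p = 0.0384, adjusted p = 0.711 with edgeR) and Cx3cl1 (0.18, p = 0.0433, adjusted p = 0.711). Within batch 2 none had an unadjusted p under 0.05, against 2.56% of genes.

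Litters of the same exposure and batch were compared by an F test of 20 contrasts, which called 7 of 10 members, a share near the 56.8% called among all 12477 genes: Cxcl14 (adjusted p = 4.77e-05 with edgeR), Cx3cl1 (0.00817), Il34 (0.0124), Cxcl12 (0.0443), Csf1 (0.0543), Il33 (0.0614) and Il6st (0.0729). Il18 (adjusted p = 0.152), Ackr3 (0.336) and Cxcr4 (0.400) were not called. The unadjusted p was under 0.05 for 7 of 10, against 55.3% of all genes. For Cxcl14 the litter means ran from 13.0 to 30.8 CPM in CRMP1+CRMP2 and from 15.5 to 36.1 CPM in STIP1+NSE, ratios of 2.37 and 2.33 between litters with the same exposure. Among the 4 control litters of batch 2 the ratio was 1.53. Cx3cl1 litter means ran from 123 to 211 CPM in STIP1+NSE and from 147 to 162 CPM in the controls of batch 2. Cxcl12 litter means differed most in the LDHA/B+CRMP1+STIP1 litters of batch 2, from 41.9 to 92.4 CPM.

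**Figure D3:**
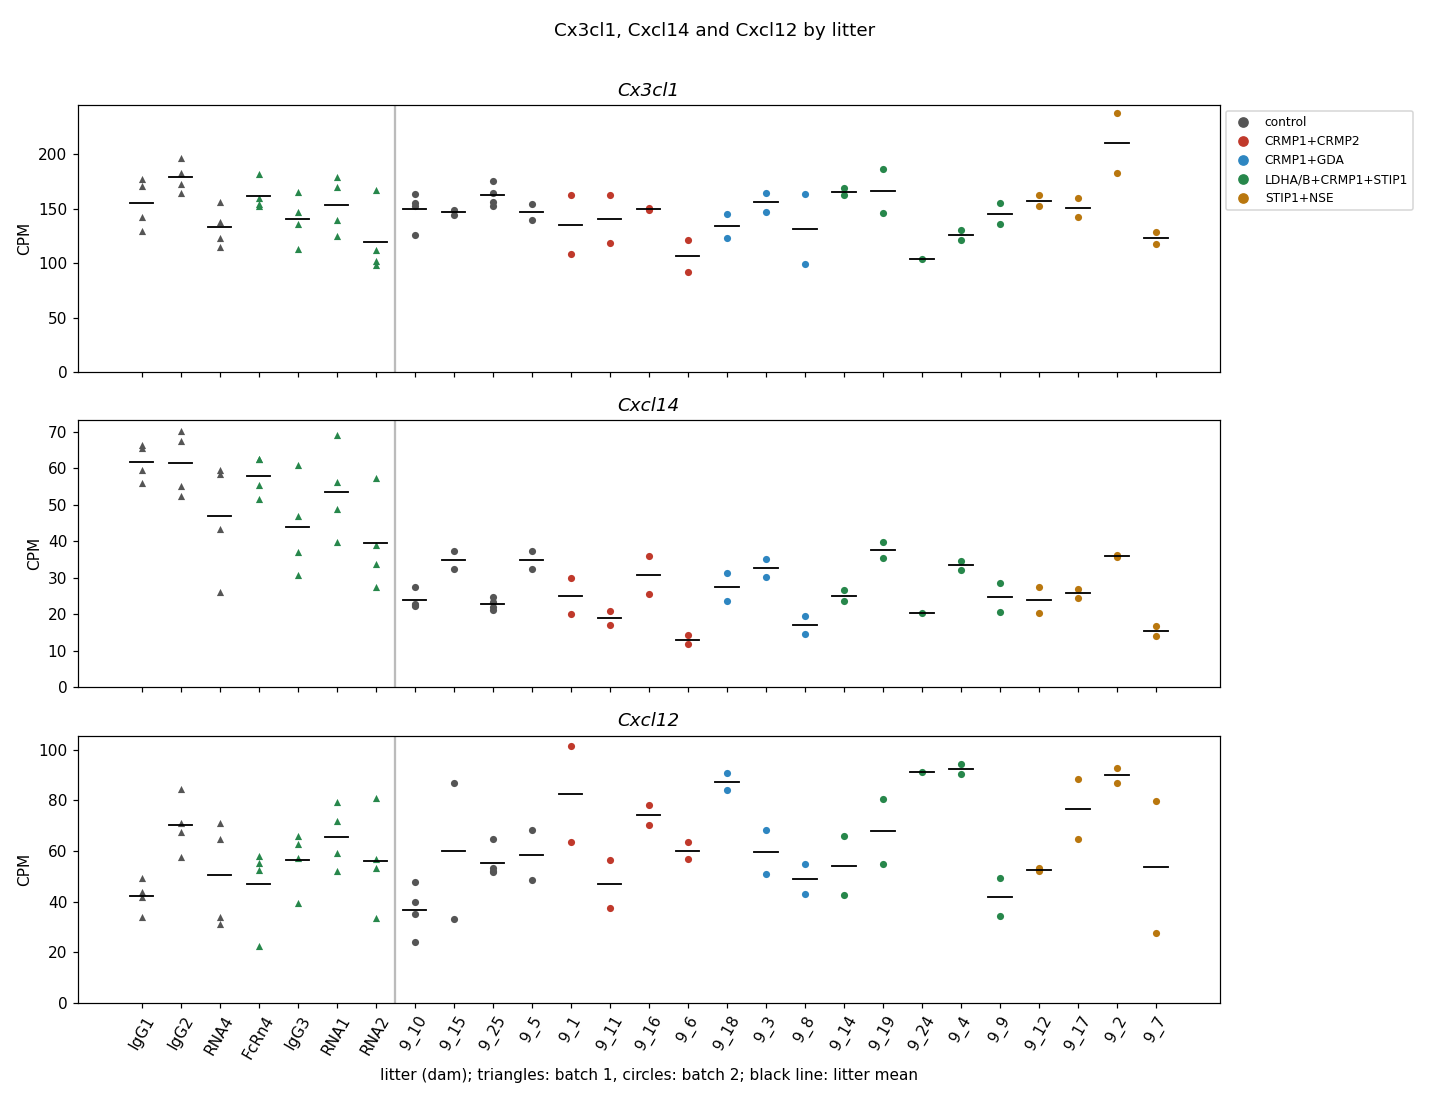
CPM of Cx3cl1, Cxcl14 and Cxcl12 in every animal by litter (dam), with colours for the exposure group, triangles for batch 1, circles for batch 2 and black lines for litter means. The Cxcl14 litter means in CRMP1+CRMP2 run from 13.0 to 30.8 CPM, and the lowest belongs to litter 9_6.

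The sums of squares of log2 CPM were divided in turn among batch (1 degree of freedom), exposure within batch (5), sex (1), litter (20) and animals of a litter (43). Batch held 60.4% of the variation of Cxcl14 and 42.2% of that of Il33, against a median of 10.5% over all genes, and less than 2% of that of Cx3cl1, Cxcl12 and Il34. For these 3 genes litter held the largest share, with 48.5% for Cx3cl1, 48.6% for Il34 and 44.99% for Cxcl12, against a median of 35.7%. Exposure held between 1.29% (Il33) and 11.9% (Ackr3), against a median of 6.43%. As a share of each gene's own variation, differences within litters held between 10.4% (Cxcl14) and 49.2% (Ackr3).

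**Figure D4:**
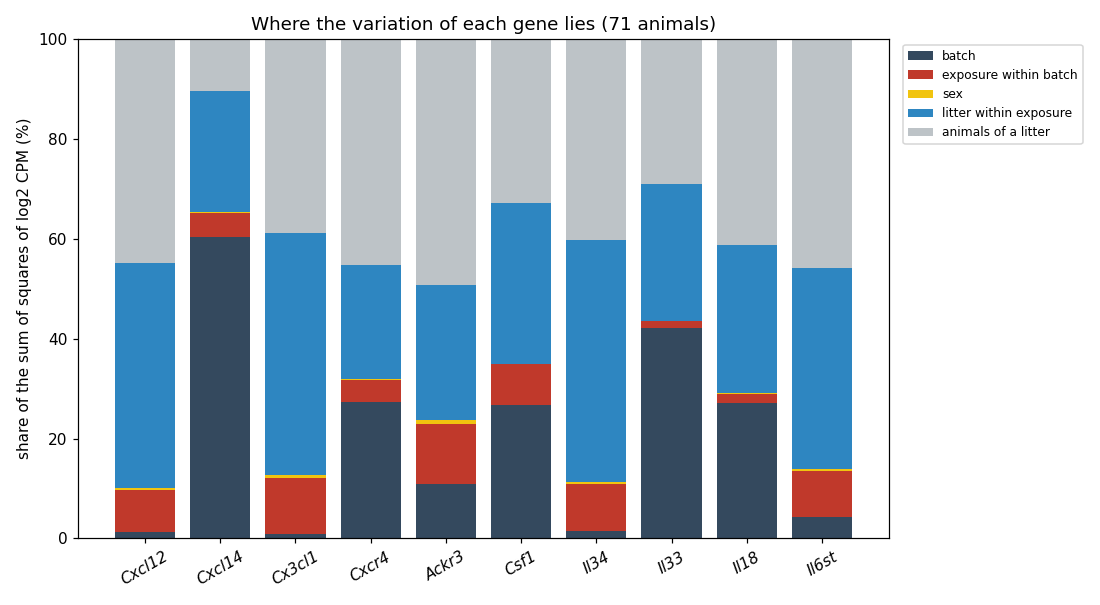
Share of the sum of squares of log2 CPM over 71 animals (%) held by batch, exposure within batch, sex, litter and animals of a litter, stacked to 100% for each gene. Batch is the tallest part for Cxcl14 (60.4%) and Il33 (42.2%), and sex is below 1% for every gene.

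Ligands and receptors were compared over the 27 litter means, after the mean of each exposure group and batch had been subtracted, in 13 pairs with permutations within those groups (two-sided, 100000 draws, adjusted over the 13). Il34 was related to Csf1r (r = 0.735, permutation p = 0.00045, adjusted p = 0.00585, rho = 0.677, rho permutation p = 0.00132, adjusted 0.00858), with r = 0.826 over the 7 litters of batch 1 and 0.721 over the 20 of batch 2, and r = 0.676 without the 2 litters farthest from the median of Il34. Csf1 and Csf1r were related as well (r = 0.565, permutation p = 0.00103, adjusted p = 0.00669, rho = 0.638, rho permutation p = 0.00027, adjusted 0.00351), with r = 0.758 in batch 1, 0.558 in batch 2 and 0.576 without the 2 farthest litters. Il34 and Ptprz1 gave r = -0.554 (permutation p = 0.0141, adjusted p = 0.0611, rho = -0.560, rho permutation p = 0.0155, adjusted 0.0673), with r = 0.242 in batch 1, -0.680 in batch 2 and -0.471 without the 2 farthest litters. Cxcl12 and its receptor Cxcr4 showed r = 0.067 (permutation p = 0.79, rho = 0.071, rho permutation p = 0.763). Cxcl12 and Ackr3 gave r = 0.523 (permutation p = 0.03, adjusted p = 0.0779, rho = 0.421, rho permutation p = 0.0697), with r = -0.050 in batch 1, 0.584 in batch 2 and 0.398 without the 2 farthest litters. Cx3cl1 and Cx3cr1 gave r = 0.228 (permutation p = 0.397, rho = 0.117, rho permutation p = 0.607).

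The members were also set beside 16 marker lists over the same litter means, in 160 relations adjusted together. Cxcl12 followed endothelium markers (r = 0.929, permutation p = 1e-05, the smallest these draws can give, adjusted p = 0.0008, rho = 0.921, rho permutation p = 2e-05), with r = 0.946 in batch 1, 0.932 in batch 2 and 0.913 without the 2 farthest litters. Its relation to meninges and fibroblast markers was r = 0.875 (permutation p = 2e-05, adjusted p = 0.0008, rho = 0.864, rho permutation p = 2e-05), with 0.861 in batch 1, 0.916 in batch 2 and 0.856 without the 2 farthest. With border macrophage markers it was r = 0.848 (permutation p = 2e-05, adjusted p = 0.0008, rho = 0.834, rho permutation p = 2e-05), with 0.744, 0.865 and 0.803 in the same order. Cx3cl1 followed interneuron markers (r = 0.830, permutation p = 3e-05, adjusted p = 0.00096, rho = 0.779, rho permutation p = 0.0001), with 0.953, 0.796 and 0.810 in the same order. Its relation to radial glia and astrocyte markers was r = 0.619 (permutation p = 0.00172, adjusted p = 0.00983, rho = 0.670, rho permutation p = 0.0006), with 0.793, 0.577 and 0.664. With excitatory neuron markers the sign of Cx3cl1 was negative (r = -0.475, permutation p = 0.0553, adjusted p = 0.153, rho = -0.513, rho permutation p = 0.0293, adjusted 0.0937), with -0.920, -0.367 and -0.535. Cxcl14 followed interneuron markers with r = 0.783 (permutation p = 5e-05, adjusted p = 0.00133, rho = 0.746, rho permutation p = 0.00015), with 0.965, 0.772 and 0.724. With Cajal-Retzius cell markers it gave r = -0.703 (permutation p = 0.00148, adjusted p = 0.00983, rho = -0.715, rho permutation p = 0.00127), with 0.432, -0.796 and -0.653, so the sign differed between batches.

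Il33 followed radial glia and astrocyte markers (r = 0.815, permutation p = 0.00017, adjusted p = 0.00352, rho = 0.810, rho permutation p = 0.00015), with 0.976 in batch 1, 0.774 in batch 2 and 0.799 without the 2 farthest litters. Il34 followed endothelium markers (r = 0.809, permutation p = 2e-05, adjusted p = 0.0008, rho = 0.799, rho permutation p = 4e-05), with 0.633, 0.831 and 0.790 in that order, and microglia markers with r = 0.750. Csf1r is itself one of the 11 microglia markers. Csf1 was most related to meninges and fibroblast markers (r = 0.744, permutation p = 0.0002, adjusted p = 0.00352, rho = 0.752, rho permutation p = 0.00025), with 0.806, 0.710 and 0.736. The 27 points share slices of mixed tissue, so these relations describe litters and not cells.

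**Figure D5:**
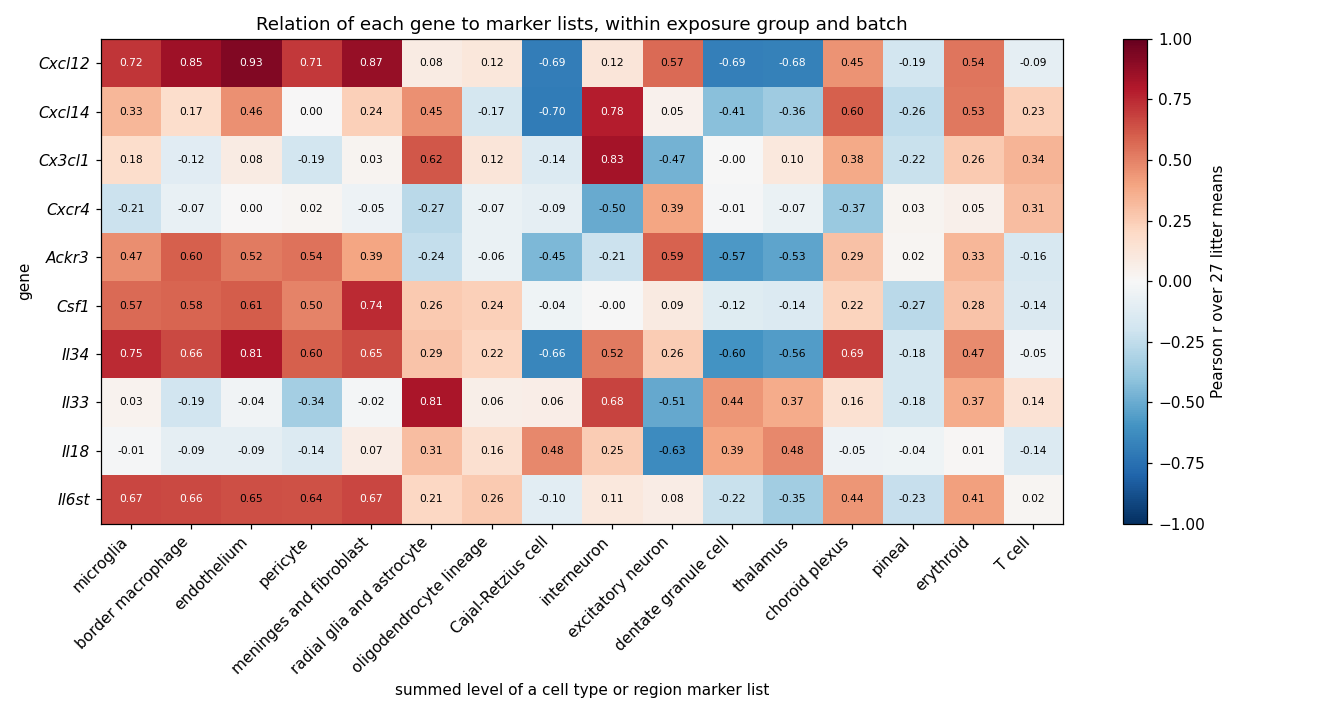
Pearson's r over 27 litter means between each gene (vertical) and the summed level of each of 16 marker lists (horizontal), after subtraction of the mean of each exposure group and batch, on a colour scale from -1 to 1. The 5 largest values are Cxcl12 with endothelium (0.93), meninges (0.87) and border macrophage markers (0.85), Cx3cl1 with interneuron markers (0.83) and Il33 with radial glia and astrocyte markers (0.81).

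Single genes most like each member were sought over the 71 animals among 12476 genes, after the same subtraction, and are given with r and no test. Cxcl12 was most like Col18a1 (r = 0.94), Tgm2 (0.93) and Foxc1 (0.92), of which Foxc1 is one of the meninges markers. Cxcr4 was most like the cortical transcription factor genes Fezf2 (0.76) and Lhx2 (0.75), and Ackr3 had no close neighbour, with r = 0.56 for Dipk2a. Cx3cl1 was most like the neuronal genes Eef1a2 (0.88), Tuba4a (0.87) and Camk2a (0.86). Cxcl14 was most like Gng7 (0.81), Galnt18 (0.80) and Adora2a (0.79), of which Gng7 and Adora2a are known from striatal neurons. Il34 was most like Sparc (0.79), B2m (0.79) and Bcam (0.77), Csf1 like Zfp36l1 (0.69), Il33 like Gfap (0.66), the astrocyte filament gene and one of the astrocyte markers, Il18 like Cpm (0.61) and Il6st like Pld1 (0.69).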

How the data were processed

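RNA-seq libraries from 71 animals were analysed. The deposited table holds whole-number counts per gene, which the authors made by aligning paired reads to rn7 with STAR 2.5.4b and counting with featureCounts (version and options not given in the sources used here). The deposited table also gives exon lengths in bases. Exposure, sex and dam came from the labels and batch from the series of sample titles. Among counts from 1 to 9, 74.5% were even, so halved counts were tried. The 2 most alike libraries differed by more than sampling noise (chi-square 5.63 per gene), so all 71 were kept.

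CPM and RPKM were computed from library totals. Tests used R 4.3.3 with edgeR 4.0.16 (TMM, robust quasi-likelihood), with Benjamini-Hochberg adjustment over all genes tested and a threshold of 0.1. The 47 exposed animals were compared with controls over genes that reached 1 CPM in 8 or more libraries, and each pattern over genes exceeding 1 CPM in 2 or more, both with the first surrogate variable (sva 3.50.0), as in the study's methods. All 10 members passed these filters. The batch, interaction and litter tests had sex as covariate, and the sex test had group and batch. Alternatives included DESeq2 1.42.0, other size factors, no filter, other covariates, litter as a random effect (limma 3.58.1), litter sums, single batches and each litter left out. Scripts were tested on simulated data. The simulated counts were independent between animals, with the same dispersion for all genes, so they cannot show how the tests behave where littermates are alike. Litter relations were computed with Python and numpy on log2(CPM + 0.1).

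The members and lists were chosen with earlier results of these data known. Members with an unadjusted p under 0.05 in a comparison were named with fold changes, and listed genes past the threshold with at most 5 per list. Some listed genes are not reported here. Littermates share a dam, so p-values over animals are too small where litters differ. Batch cannot be told apart from pattern for the 3 patterns sequenced in batch 2 alone, except through its controls. The paper disagrees with itself on litter order. Its methods place all RNA-seq animals in first litters. Its list of offspring places these 3 patterns in first litters, and controls and LDHA/B+CRMP1+STIP1 in second litters. If that list holds, litter order cannot be told apart from exposure for these 3 patterns, within batch 2 as well. The labels and methods describe a slice at the level of the hippocampus, whereas the series' design text names other regions.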

Additional observations from a re-analysis of the deposited data

Results flagged for a closer look

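Of 30 sets of a member and an exposure group of 6 or 8 animals, 3 held an animal whose gap to the next one exceeded Dixon's 95% critical value, and chance gives this in a share of about 0.05 of sets. Ackr3 in CRMP1+GDA was lowest in a female of litter 9_8, at 7.70 CPM against 11.8 CPM in the next animal. Ackr3 in STIP1+NSE was highest in a male of litter 9_7, at 19.97 CPM against 13.6 CPM in the next animal. Cxcr4 in STIP1+NSE was highest in the same male, at 41.2 CPM against 32.6 CPM. This male's library was also one of the 5 with more than 10 CPM of pineal markers (49.5 CPM), and the part of those markers in its values was not tested.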

How the results depend on the processing

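The 2 calls in CRMP1+CRMP2 became 0 with batch and sex as covariates, with litter as a random effect, with counts summed per litter and within batch 2, and also without the libraries rich in pineal markers or those poor in thalamus markers, alternatives chosen after seeing the data. Leaving out each exposed litter in turn gave 0 to 2 calls. There were 0 without litter 9_6 (0.324% of all genes called), and 1 without litter 9_1 (11.8%) or 9_11 (6.31%). Without litter 9_16 there were 2 (22.8%). With PC1 and PC2 as covariates 3 members were called, against 18.9% of all genes. In LDHA/B+CRMP1+STIP1 the 0 calls became 1 without litter 9_9 (range 0 to 1), where 0.347% of all genes were called. The 4 calls between control batches became 2 with litter as a random effect, and ranged from 2 to 5 over the litters left out, with the 2 reached without litter 9_25. The counts of members called in the other comparisons did not change by over 1.5 times in any alternative run, and no log2 fold change of a named member reversed. The causes of these changes were not tested. Between exposure groups, no paired analysis was possible because litters are nested within exposure groups and replicate numbers do not link animals. Sex differs, since many litters held both males and females. With litter as a random effect (limma), 0 members had an unadjusted p under 0.05 for sex, against 7.61% of genes. Il18 and Il1rl1 are limited by low counts, and groups of 6 or 8 animals from 3 or 4 litters limit every single-pattern comparison.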
